A study of Mus musculus with 11 samples.

Results

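A set of 10 genes of the interferon-induced antiviral programme was followed in sorted mouse beta cells: Ifit1, Ifit2, Ifit3 and Ifit3b of the IFIT family, Rsad2 (viperin), Bst2 (tetherin), Xaf1, Ifi44, Ifi35 and Ifitm3. They were chosen by name, each by the Ensembl identifier that carries the symbol, and they are 10 of the 55487 genes measured. Pancreatic islets of C57BL/6 mice (C57BL/6JRj males of 12 weeks, according to the methods) were cultured for 20 h without IFNγ or with 50 pg/mL of it, and beta cells were then sorted by flow cytometry as EpCam+, CD24-low, CD71+ cells after removal of dead, blood and endothelial cells. No group carries a transgene or a deletion. Beta cells of untreated islets form the control group (4 libraries, replicates 1 to 4), and those of treated islets were divided by surface PD-L1 into PD-L1low cells (3 libraries, replicates 2 to 4) and PD-L1high cells (4 libraries, replicates 1 to 4). The comparison asks how far the response to a low dose of IFNγ, which brings PD-L1 to the surface of some beta cells and not of others, was shared by antiviral effector genes that are best known as targets of type I interferons.

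Interferons act through JAK kinases and STAT factors. Type I interferons act mainly on the interferon-stimulated response element (ISRE), which the factor complex ISGF3 binds, while IFNγ acts mainly on the gamma-activated sequence (GAS). The genes followed here encode effectors that act on viruses at different steps: IFIT proteins bind viral RNA and hold back its translation, viperin is a radical SAM enzyme that makes a nucleotide that ends viral RNA chains, tetherin holds budding virions at the cell surface, and IFITM3 blocks the fusion of viruses in endosomes. XAF1 binds the inhibitor of apoptosis XIAP, whereas IFI44 and IFI35 are cytoplasmic interferon-induced proteins whose roles are less settled.

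On the mouse genome (GRCm38) the 4 IFIT genes lie in a row on the plus strand of chromosome 19: Ifit2 from 34550694 to 34576419, Ifit3 from 34583531 to 34588731, Ifit3b from 34607970 to 34613401 and Ifit1 from 34640871 to 34650009. Rsad2 lies on chromosome 12 from 26442746 to 26456452, Bst2 on chromosome 8 from 71534255 to 71537456, and Ifi44 on chromosome 3 from 151730922 to 151749960, all on the minus strand. Xaf1 (chromosome 11, 72301629 to 72313733) and Ifi35 (chromosome 11, 101448407 to 101458698) lie on the plus strand, and Ifitm3 (chromosome 7, 141009586 to 141010770) on the minus strand. All 10 are annotated as protein coding. Ifi35 alone overlaps another annotated gene, the antisense Gm11626 on the opposite strand.

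RefSeq promoter windows of 300 bases (GRCm38.p6, 250 bases before each start and 50 from it) were found for all 10 genes, 11 windows in all since Ifit2 has 2 starts. The ISRE core (GAAA, any 2 bases, GAAA), searched on both strands, was present in the windows of 6 genes (Ifit1, Ifit3, Ifit3b, Rsad2, Bst2 and Ifitm3), against 3.44% of all 32851 windows. In Ifitm3 its matches lie after the start. The GAS core TTCNNNGAA was found in 4 genes (Ifit2, Bst2, Ifi35 and Ifitm3), against 8.3% of all windows, and in Bst2 and Ifitm3 it overlaps an ISRE core. Neither core was found for Xaf1 or Ifi44 in these windows. The stretches that hold the ISRE cores before the start are shown because the genes that hold them are compared in level further on. They are read along the strand of the gene, and capitals mark the ISRE core, which stands reversed and complemented in all but Bst2.
Ifit1, chr19:34640770-34640828, plus strand: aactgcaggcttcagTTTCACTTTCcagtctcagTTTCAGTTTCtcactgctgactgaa
Ifit3, chr19:34583358-34583431, plus strand: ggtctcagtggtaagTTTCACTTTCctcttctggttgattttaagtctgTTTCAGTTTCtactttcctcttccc
Ifit3b, chr19:34607754-34607827, plus strand: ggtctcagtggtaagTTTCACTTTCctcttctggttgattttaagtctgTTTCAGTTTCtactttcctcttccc
Rsad2, chr12:26456548-26456587, minus strand: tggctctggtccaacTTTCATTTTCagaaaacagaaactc
Bst2, chr8:71537572-71537617, minus strand: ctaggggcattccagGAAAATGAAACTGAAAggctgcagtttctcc
The stretches of Ifit3 and Ifit3b are the same base for base, and both of their ISRE cores recur in Ifit1 with a shorter gap. In Bst2, 2 overlapping matches form 1 run, and its GAS core begins 6 bases before them, at position -136 against -130. A match of these letters is a description of the window and not a binding site.

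**Figure D1:**
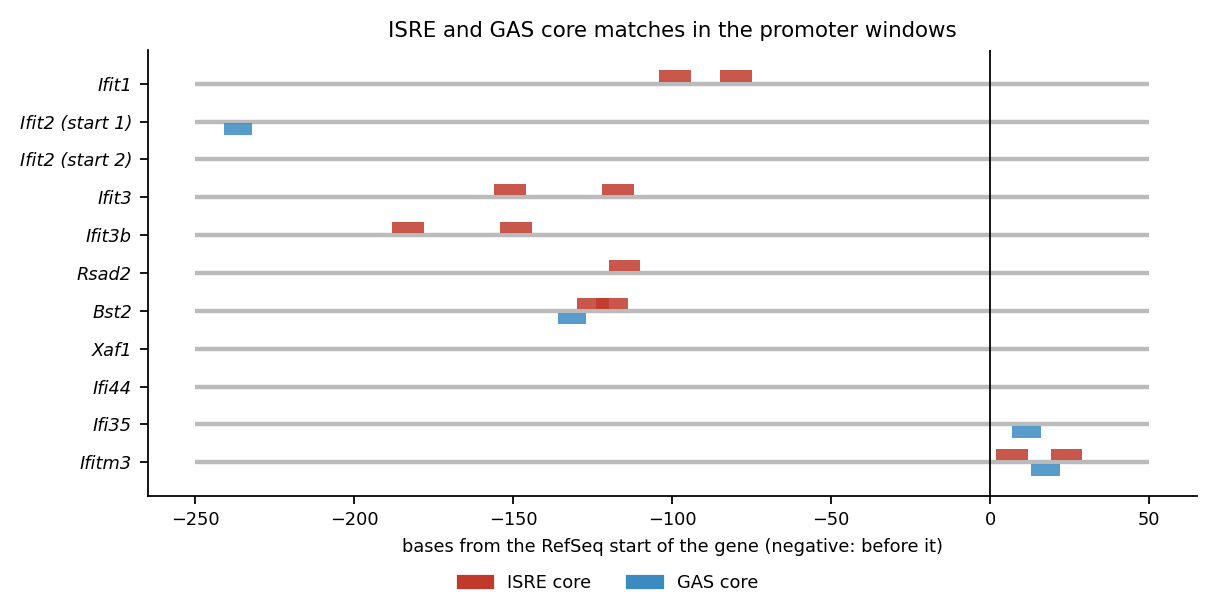
Each line is the promoter window of 1 gene, from 250 bases before the RefSeq start (negative values) to 50 bases after it, on an axis in bases; red bars mark matches of the ISRE core and blue bars matches of the GAS core. In Ifit1, Ifit3, Ifit3b, Rsad2 and Bst2 the ISRE cores lie between positions -188 and -85, and those of Ifitm3 lie after the start.

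The 11 libraries held 10422038 to 15810817 expected counts, and CPM stands for a count divided by its library's scaled total. Control replicate 1 stood apart: its median absolute log2 difference from the other libraries of its group was 0.456, against 0.207 to 0.346 for the other 10 libraries, and 13.3% of its counts came from mitochondrial genes, against 5.545% to 11.89%. Values are therefore given for all libraries and without replicate 1, that is, without control replicate 1 and PD-L1high replicate 1. Cd274, which encodes PD-L1 and on whose protein the treated cells were divided, ran from 15.1 to 25.1 CPM in control, 30.5 to 47.0 in PD-L1low and 172.0 to 279.0 in PD-L1high libraries, so that gate and transcript had the same order. The 11 beta cell markers summed to 63000.0 to 96700.0 CPM. Of markers of other cell types, 5 of 10 for macrophages (Adgre1, Lyz2, C1qb, C1qc and Aif1), 4 of 7 for lymphocytes, 4 of 8 for acinar cells and 1 of 6 for endothelial cells had no count in any library. The 4 duct cell markers all had counts and summed to 371 to 788 CPM. Among them Krt7 was at 265 to 343 CPM and Spp1 at 104 to 466 CPM, highest in PD-L1high replicate 1. The 7 alpha cell markers, all with counts, summed to 792 to 2030 CPM. The part of the duct and alpha cell markers in the differences was not tested. The macrophage list summed to 8.53 to 11.7 CPM in control, 8.36 to 11.4 in PD-L1low and 14.5 to 22.6 in PD-L1high libraries, with C1qa at 3.65 to 9.04, Cd68 at 1.57 to 4.44 and Cd74, which encodes the invariant chain of MHC class II, at 0.0896 to 12.8 CPM. Of these Cd74 was higher in PD-L1high than in control cells (3.04 on the log2 scale, adjusted p = 0.0172, and 3.0, adjusted p = 0.175, without replicate 1), and its part in the differences given further on was not tested. The endothelial list summed to 1.45 to 4.28 CPM over all libraries, and the hormone genes of PP cells, Ppy and Pyy, summed to 26.8 to 33.5 CPM in PD-L1low libraries against 150 to 382 in control and 233.0 to 562.0 in PD-L1high libraries. Interferon genes were nearly silent: 19 of 21, among them Ifnb1, every Ifna gene listed and Ifng, had no count in any library, and the other two (Ifnk and Ifnl3) summed to at most 0.31 CPM.

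In PD-L1high cells 9 of the 10 genes were expressed, at levels that spanned a wide range per length. In TPM, a level scaled by transcript length, the order of the mean levels was Xaf1 (46.3 ± 15.9, SD, n = 4), Bst2 (37.3 ± 8.46), Ifit1 (34.7 ± 6.71), Ifit3 (26.3 ± 8.23), Ifi35 (23.5 ± 5.85), Rsad2 (14.7 ± 5.88), Ifit3b (7.89 ± 3.35), Ifi44 (5.99 ± 2.21) and Ifit2 (2.21 ± 1.52). Neighbours in this order overlapped in their ranges over the 4 libraries in every case. In control replicates 2 to 4 the order was another: Ifi35 led with 11.9 ± 1.09 TPM (n = 3), followed by Bst2 with 5.66 ± 0.196, Ifit1 with 4.22 ± 1.34 and Xaf1 with 4.19 ± 1.58, while Ifi44 and Ifit2 were lowest of the 9, at 0.18 ± 0.175 and 0.16 ± 0.101. The effective length that the authors' software assigned differed between libraries for Ifit2 (728.2 to 3612.31 bases) and Xaf1 (414.19 to 1793.67 bases), so that their TPM values do not follow their counts, and comparisons between groups were made on counts.

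Ifitm3 was at the edge of detection. Its expected counts were 8, 1, 0 and 0 in control replicates 1 to 4, 3, 0 and 0 in PD-L1low replicates 2 to 4, and 7, 0, 3 and 0 in PD-L1high replicates 1 to 4. It was below the filter on low counts and was not tested, and a difference between groups was not detectable at this depth, at which 3 counts correspond to 0.19 to 0.288 CPM.

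**Figure D2:**
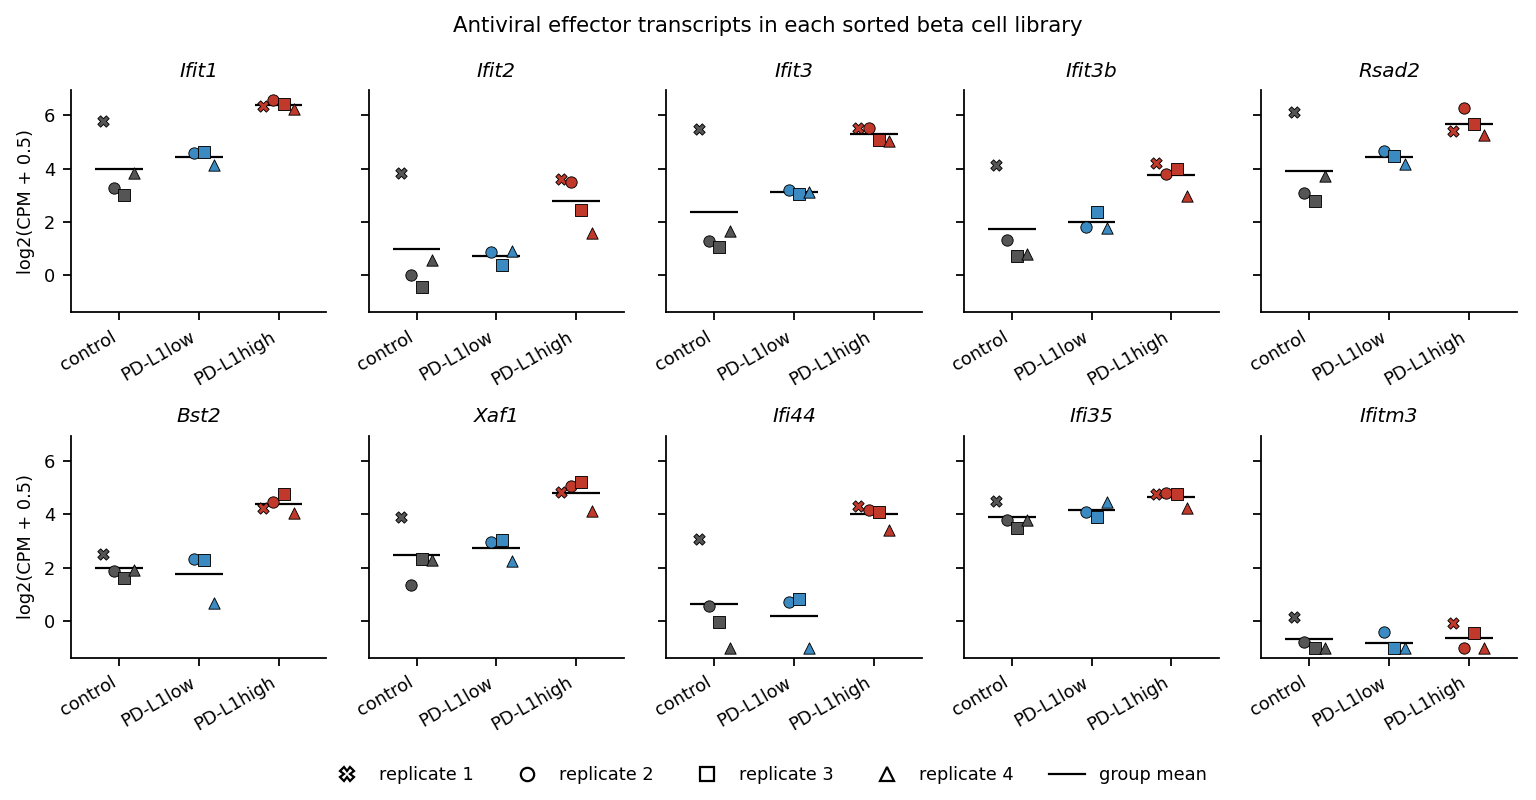
Each panel is 1 gene; the vertical axis is log2(CPM + 0.5), the 3 columns are the control, PD-L1low and PD-L1high groups, each symbol is 1 library with its shape giving the replicate number, and the bar is the group mean. Control replicate 1 (crosses) lies above the other controls in every panel, while PD-L1low libraries lie below PD-L1high libraries except for Ifi35 and Ifitm3.

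The question of the first comparison is which of these genes differed between PD-L1high and control beta cells. All 9 tested genes had a positive fold change, and 2 of them, Bst2 and Xaf1, passed the test (edgeR quasi-likelihood, adjusted p under 0.05), against 0.941% of all 16252 tested genes that rose. The median log2 fold change was 2.38 for the 9 genes and -0.02 for all tested genes. Without replicate 1, 8 of the 9 genes rose, all but Ifi35, against 0.866% of all genes, and the median was 2.99. DESeq2 with the same terms and all libraries called 8 of the 9, all but Rsad2 (adjusted p = 0.174), against 1.31% of all genes that rose, with adjusted p = 0.000166 for Ifit1, 0.000472 for Ifit3 and 0.00555 for Ifi44. As the libraries are bulk samples, more cells that express a gene and more RNA per cell cannot be told apart.

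Bst2, whose product tethers virions, gave the clearest separation. It was at 5.27, 3.15, 2.6 and 3.22 CPM in control replicates 1 to 4, at 4.55, 4.44 and 1.12 CPM in PD-L1low replicates 2 to 4, and at 18.4, 21.8, 26.9 and 16.2 CPM in PD-L1high replicates 1 to 4. Every PD-L1high library lay above every other library, control replicate 1 included, whereas PD-L1low and control libraries overlapped. The difference between PD-L1high and control was 2.55 on the log2 scale (SE 0.32, adjusted p = 0.000348), or 5.84-fold, and without replicate 1 it was 2.82 (SE 0.36, adjusted p = 0.000346). It passed the test in all 26 alternative analyses, in which it ranged from 2.27 to 2.82.

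Xaf1, the XIAP-binding gene, also rose. Its levels were 14.6, 2.02, 4.53 and 4.39 CPM in control replicates 1 to 4, 7.37, 7.69 and 4.21 CPM in PD-L1low replicates 2 to 4, and 28.1, 32.7, 36.2 and 16.8 CPM in PD-L1high replicates 1 to 4. The PD-L1high libraries did not overlap with the controls, although the lowest of them was close to control replicate 1. The log2 fold change was 2.38 (SE 0.42, adjusted p = 0.0308) with all libraries and 2.92 (SE 0.33, adjusted p = 8.13e-05) without replicate 1. It did not pass without the replicate term in the model (2.16, adjusted p = 0.148), with PD-L1low libraries left out of the fit altogether (2.41, adjusted p = 0.175), or when any 1 of 7 libraries was left out (control replicate 3 or 4, each PD-L1low library, or PD-L1high replicate 3 or 4), with adjusted p from 0.0801 to 0.218.

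Ifit1, whose product binds viral RNA that lacks the cap methylation of the host, had 3 levels. The control libraries held 55.1, 9.3, 7.55 and 14 CPM in replicates 1 to 4, the PD-L1low libraries 23.7, 24.0 and 17.3 CPM in replicates 2 to 4, and the PD-L1high libraries 81.5, 94.2, 84.5 and 74.7 CPM in replicates 1 to 4. The 3 groups were separate but for control replicate 1, which lay above every PD-L1low library and below every PD-L1high library. With all libraries the log2 difference between PD-L1high and control was 2.41 (95% interval 1.12 to 3.7, adjusted p = 0.223). Without replicate 1 it was 3.05 (2.58 to 3.53, adjusted p = 5.76e-07), which corresponds to 8.3-fold.

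Ifit3 and its near copy Ifit3b, both IFIT genes, had the same order of groups. Ifit3 was at 44.8 CPM in control replicate 1 and at 1.95, 1.57 and 2.69 CPM in control replicates 2 to 4, at 8.78, 7.76 and 8.21 CPM in PD-L1low replicates 2 to 4, and at 46.0, 45.2, 33.1 and 32.0 CPM in PD-L1high replicates 1 to 4. Control replicate 1 thus lay within the PD-L1high range and the other controls below every treated library. The log2 fold change was 3.03 (SE 0.88, adjusted p = 0.472) with all libraries and 4.16 (SE 0.24, adjusted p = 5.36e-08), or 17.9-fold, without replicate 1. Ifit3b was at 16.9, 2.02, 1.15 and 1.25 CPM in control replicates 1 to 4, at 3.06, 4.73 and 2.95 CPM in PD-L1low replicates 2 to 4, and at 18.3, 13.4, 15.2 and 7.48 CPM in PD-L1high replicates 1 to 4. Again 1 control library lay among the PD-L1high libraries. Its log2 fold change was 2.2 (SE 0.5, adjusted p = 0.0917), and 2.99 (SE 0.37, adjusted p = 0.000266) without replicate 1.

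Reads of these 2 genes can be divided between them only in part. Of all 75-base windows, 687 are found in both transcripts, which are 41.1% of the windows of Ifit3 and 35.7% of those of Ifit3b, so the split made by the authors' software is uncertain there. Ifit3 took 48.6% to 81.0% of the summed expected counts. The sum of both was 61.7 CPM in control replicate 1, 2.72 to 3.97 CPM in control replicates 2 to 4, 11.2 to 12.5 CPM in PD-L1low libraries and 39.5 to 64.2 CPM in PD-L1high libraries, the same order as for each gene alone. Tested as 1 gene, the sum gave 2.8 on the log2 scale between PD-L1high and control (SE 0.79, adjusted p = 0.451).

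Ifit2 was low in 3 of the 4 control libraries and in PD-L1low cells. Control libraries held 13.8 CPM in replicate 1 and 0.525, 0.242 and 0.985 CPM in replicates 2 to 4, PD-L1low libraries 1.32, 0.813 and 1.4 CPM in replicates 2 to 4, and PD-L1high libraries 11.8, 10.7, 4.95 and 2.49 CPM in replicates 1 to 4. Control replicate 1 exceeded every PD-L1high library, and the other controls lay below every one of them. The log2 fold change was 2.3 (SE 0.74, adjusted p = 0.4) with all libraries and 3.37 (SE 0.68, adjusted p = 0.0237) without replicate 1. This last value rests on 4 to 11 expected counts in each of the 3 remaining controls.

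Rsad2, which encodes viperin, was as high in control replicate 1 as in PD-L1high cells. It was at 68.8, 8.1, 6.4 and 12.6 CPM in control replicates 1 to 4, at 24.6, 21.9 and 17.5 CPM in PD-L1low replicates 2 to 4, and at 42.1, 77.0, 51.0 and 38.3 CPM in PD-L1high replicates 1 to 4. Control replicate 1 lay above 3 of the 4 PD-L1high libraries, among them that of its own replicate number. With all libraries the log2 fold change was 1.78 (SE 0.74, 95% interval -0.05 to 3.62, adjusted p = 0.653), and without replicate 1 it was 2.59 (SE 0.27, adjusted p = 0.000104), or 6.04-fold.

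Ifi44 had the largest fold change of the 9 genes. Its control libraries were at 7.91, 0.975, 0.483 and 0 CPM in replicates 1 to 4, the PD-L1low libraries at 1.16, 1.26 and 0 CPM in replicates 2 to 4, and the PD-L1high libraries at 19.5, 17.2, 16.7 and 10.1 CPM in replicates 1 to 4. PD-L1high libraries lay above all others, and in replicate 4 neither the control nor the PD-L1low library held a count, which allows up to 0.274 and 0.204 CPM. The log2 fold change was 3.88 (SE 0.96, adjusted p = 0.255) with all libraries and 5.18 (SE 0.7, adjusted p = 0.00103) without replicate 1.

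Ifi35 had the smallest fold change. It was at 21.9, 13.2, 10.7 and 13.2 CPM in control replicates 1 to 4, at 16.5, 14.6 and 21.8 CPM in PD-L1low replicates 2 to 4, and at 26.4, 27.0, 26.6 and 18.3 CPM in PD-L1high replicates 1 to 4. The ranges of all 3 groups overlapped, and PD-L1high replicate 4 lay apart from the other 3 libraries of its group. Its log2 fold change was 0.79 (SE 0.2, adjusted p = 0.109) with all libraries and 0.97 (SE 0.22, adjusted p = 0.0619) without replicate 1, and it passed without PD-L1high replicate 4 (0.93, adjusted p = 0.0434). With the replicate term it also passed in DESeq2 (0.79, adjusted p = 0.0342) and limma-voom (0.75, adjusted p = 0.0416).

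**Figure D3:**
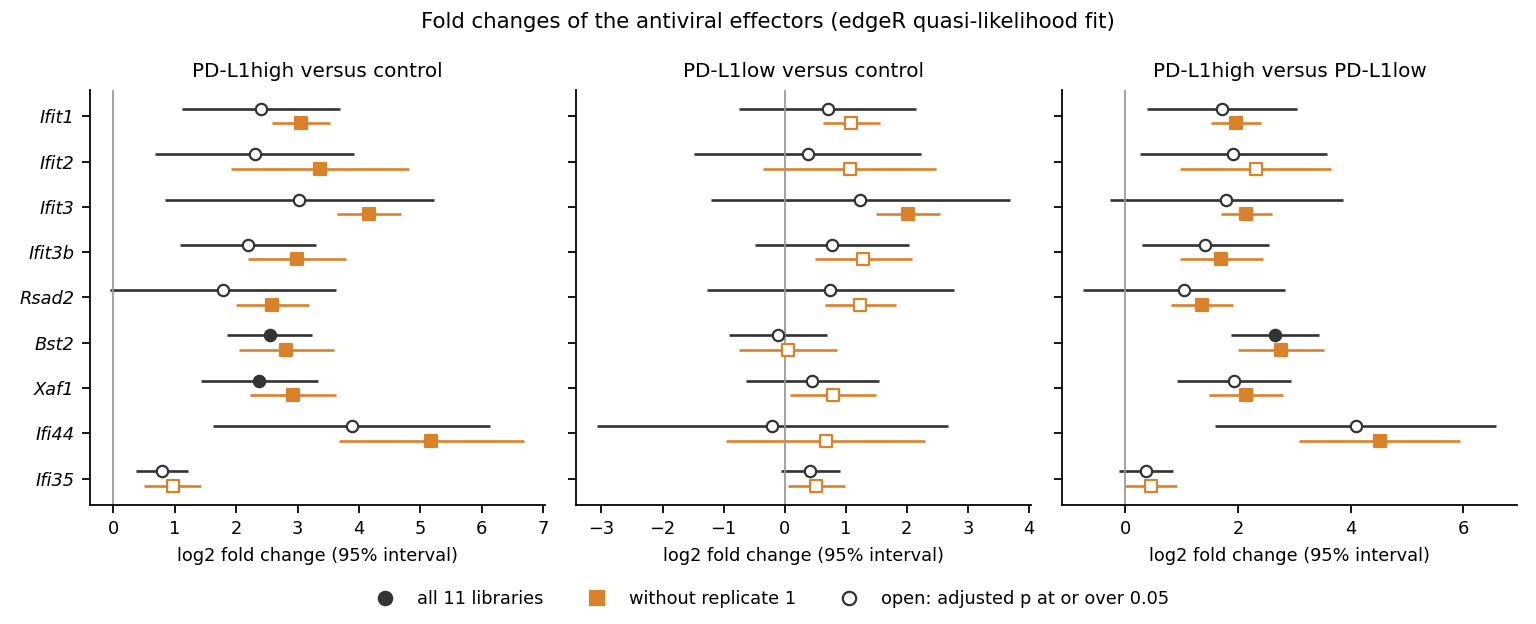
Points are log2 fold changes of the 9 tested genes in the 3 comparisons and lines their 95% intervals, with all 11 libraries in black and without replicate 1 in orange; filled symbols have an adjusted p under 0.05. Leaving out replicate 1 moves every PD-L1high versus control value up (for Ifit3 from 3.03 to 4.16) and narrows most intervals.

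How many genes separated the groups depended on replicate 1 in the same way. All PD-L1high libraries lay above all control libraries for 4 of the 9 genes (Ifit1, Bst2, Xaf1 and Ifi44), against 2.68% of all tested genes, and for all 9 without replicate 1, against 5.57%. Taken within each replicate number, the log2 difference between PD-L1high and control had a median over the 9 genes of 0.27 in replicate 1, with 7 genes higher and a range from -0.71 (Rsad2) to 1.77 (Bst2). In replicates 2, 3 and 4 the medians were 3.32, 3.46 and 2.28, with all 9 genes higher in each, while the median of all tested genes stayed between -0.03 and 0.0 in the 4 replicates.

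**Figure D4:**
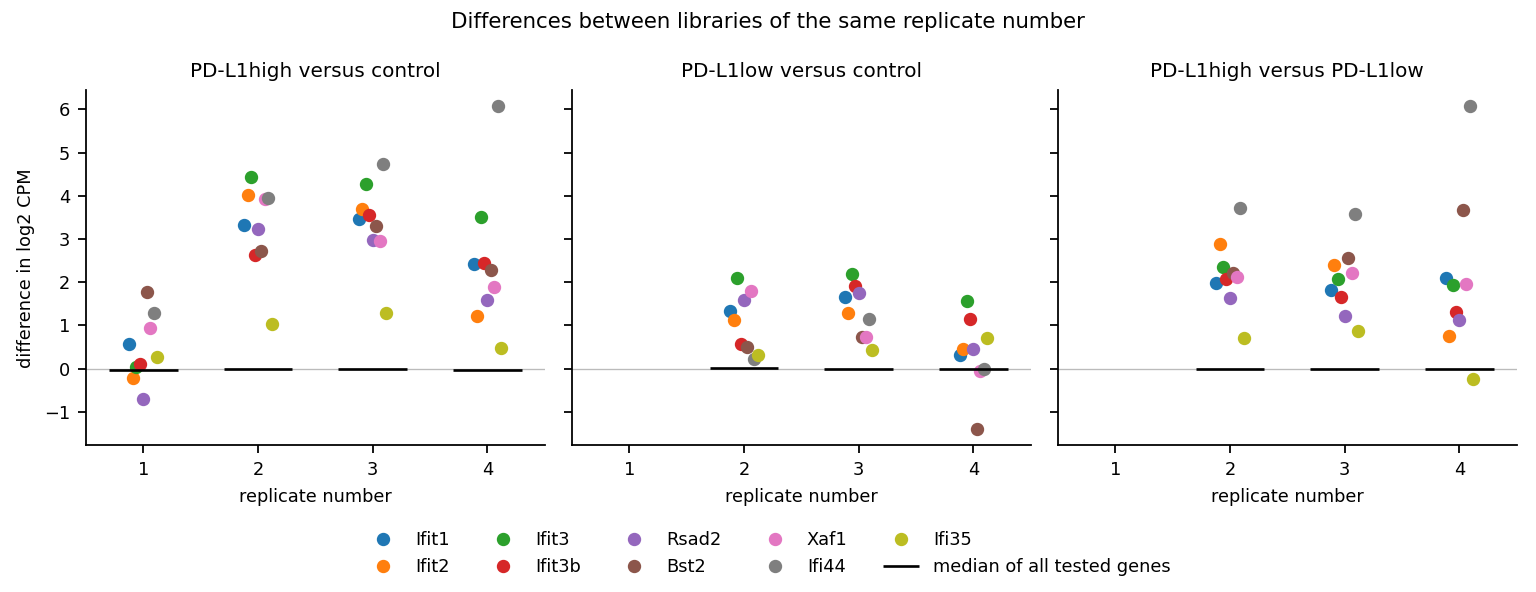
Each point is the difference in log2 CPM of 1 gene between 2 libraries of the same replicate number (horizontal axis), for the 3 comparisons; the black bar is the median of all tested genes. In PD-L1high versus control the points of replicate 1 lie between -0.71 and 1.77, and those of replicates 2 to 4 between 0.47 and 6.07.

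Between PD-L1low and control cells none of the 9 genes passed the test with all libraries, against 0.0615% of all tested genes that rose, and none had an unadjusted p under 0.05, against 0.991% of all genes. The log2 fold changes ran from -0.2 (Ifi44) to 1.24 (Ifit3), with adjusted p = 1.0 for all 9 in edgeR, and DESeq2 with the replicate term called none. Without replicate 1, Ifit3 rose by 2.02 on the log2 scale (SE 0.24, adjusted p = 0.000571), or 4.05-fold, against 0.236% of all genes. The next in order by edgeR were Ifit1 with 1.09 (adjusted p = 0.0647) and Rsad2 with 1.24 (adjusted p = 0.161), and 6 of the 9 were higher at an unadjusted p under 0.05, against 1.64% of all genes.

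The same comparison was made by the ranges of the libraries. With all libraries, no gene had every PD-L1low library above every control, against 1.28% of all genes; without replicate 1 this held for 5 (Ifit1, Ifit3, Ifit3b, Rsad2 and Ifi35), against 3.8%. Bst2 was not among them, and its log2 difference between PD-L1low and control was -0.11 (95% interval -0.91 to 0.7) with all libraries and 0.06 (-0.74 to 0.86) without replicate 1. For Ifi44 the interval was too wide to tell (-3.08 to 2.67 with all libraries). Within replicates 2, 3 and 4 the median differences of the 9 genes were 1.13, 1.29 and 0.45, and 9, 9 and 6 of them were higher in PD-L1low cells.

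Within the treated islets, PD-L1high cells exceeded PD-L1low cells for most of these genes, and neither of these groups holds control replicate 1. All PD-L1high libraries lay above all PD-L1low libraries for 8 of the 9 genes, all but Ifi35, against 4.41% of all genes, and for the same 8 without replicate 1, against 6.66%. With all libraries Bst2 alone passed the test, with 2.65 on the log2 scale (SE 0.37, adjusted p = 0.00129), against 0.64% of all genes that were higher. The model shares 1 estimate of spread per gene over all groups, so control replicate 1 entered these errors too. Through the replicate term, which it shares with PD-L1high replicate 1, that library also entered the fold changes themselves. Leaving out control replicate 1 alone raised the fold changes of all 9 genes, for Ifit1 from 1.71 to 1.96 and for Rsad2 from 1.04 to 1.36. When only the PD-L1high and PD-L1low libraries were fitted, 7 genes passed, against 0.852% of all genes, and without replicate 1 in all groups 7 passed as well, against 0.822%: Ifit1 (1.96, adjusted p = 5.81e-05), Ifit3 (2.14, adjusted p = 3.25e-05), Ifit3b (1.7, adjusted p = 0.0269), Rsad2 (1.35, adjusted p = 0.021), Bst2 (2.76, adjusted p = 0.000536), Xaf1 (2.14, adjusted p = 0.00145) and Ifi44 (4.51, adjusted p = 0.00265). Ifit2 (2.31, adjusted p = 0.184) and Ifi35 (0.45, adjusted p = 0.692) did not. Hormone genes of other islet cells moved with the same contrast. Ppy was at 14 to 20.8 CPM in PD-L1low and 169.0 to 431.0 CPM in PD-L1high libraries (4.16 on the log2 scale, adjusted p = 1.61e-10), the alpha cell gene Gcg at 170.0 to 230.0 and 445.0 to 1310.0 CPM (2.37, adjusted p = 0.0163), and the delta cell gene Sst at 2.04 to 7.12 and 6.6 to 33.5 CPM (2.42, adjusted p = 0.00136). The other 6 of 7 alpha cell markers did not pass. In PD-L1low versus control cells the log2 fold change of Ppy was -3.49 (adjusted p = 1.33e-09), and in PD-L1high versus control cells 0.67 (adjusted p = 0.00183). The part of these genes in the differences was not tested.

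Control replicate 1 was the highest of the 4 controls for all 9 tested genes, against 38.1% of all genes tested, and it lay over 2-fold above the median of the other controls for 7 of them, against 19.3%. By that ratio Ifit2 was 26.3-fold, Ifit3 23-fold, Ifi44 16.4-fold, Ifit3b 13.5-fold, Rsad2 8.5-fold, Ifit1 5.93-fold and Xaf1 3.32-fold higher, while Bst2 and Ifi35 were 1.67-fold and 1.66-fold higher. The median of the PD-L1high libraries over the same controls was 14.9-fold for Ifit2, 20.1-fold for Ifit3, 11.4-fold for Ifit3b, 5.75-fold for Rsad2, 8.93-fold for Ifit1, 6.94-fold for Xaf1, 35.1-fold for Ifi44, 6.38-fold for Bst2 and 2.01-fold for Ifi35. The ratio was thus larger in this control than in PD-L1high cells for 4 of the 9 genes (Ifit2, Ifit3, Ifit3b and Rsad2) and smaller for the other 5.

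In the same library, over 2-fold above the median of the other controls were 0 of 8 genes of IFNγ signalling, 2 of 9 of type I interferon and ISGF3 signalling, 2 of 6 RNA sensors and 8 of 22 further antiviral effectors, against 19.3% of all genes. Irf8, Isg15 and Sp100 of these lists have no ratio because the median of the other controls was 0. They stay in the 8, 9 and 22 and were counted as not over 2-fold. Control replicate 1 held 0.0776, 0.776 and 1.32 CPM of them. By the rule used for the share of all genes, each of them would count as over 2-fold. Of single genes, Cd274 was 1.23-fold, Irf1 1.44-fold and Igtp 1.43-fold above the median of the other controls, whereas the PD-L1high libraries were 10.3-fold, 3.65-fold and 53.7-fold above it. Gbp2 was 2.26-fold above it, and the PD-L1high libraries 88.8-fold. Of genes of type I interferon and ISGF3 signalling, Stat2 and Irf7 were 2.94-fold and 2.7-fold higher in control replicate 1, and Irf9 and Usp18 1.53-fold and 1.46-fold. Mx1 and Mx2, chosen here after their values were seen, were 4.79-fold and 4.56-fold higher in control replicate 1 and 1.61-fold and 2.06-fold in the PD-L1high libraries. Of leukocyte genes, the lymphocyte list summed to 1.78 CPM in that library against 0.537 to 0.9 in the other controls, and the list for plasmacytoid dendritic cells to 115.0 CPM against 71.1 to 78.0. Of the latter, Tcf4, which beta cells of all groups also expressed, made up 105.0 CPM against 68.6 to 74.3. Ccr9 of the same list was at 10.1 CPM in that library against 2.47 to 3.62 in the other controls. The remaining genes of that list, Siglech, Ly6d and Klra17, had no count in any control library. The macrophage list was lowest in control replicate 1 of all 4 controls, at 8.53 CPM. The part of these values and of the mitochondrial share in the result was not tested.

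**Figure D5:**
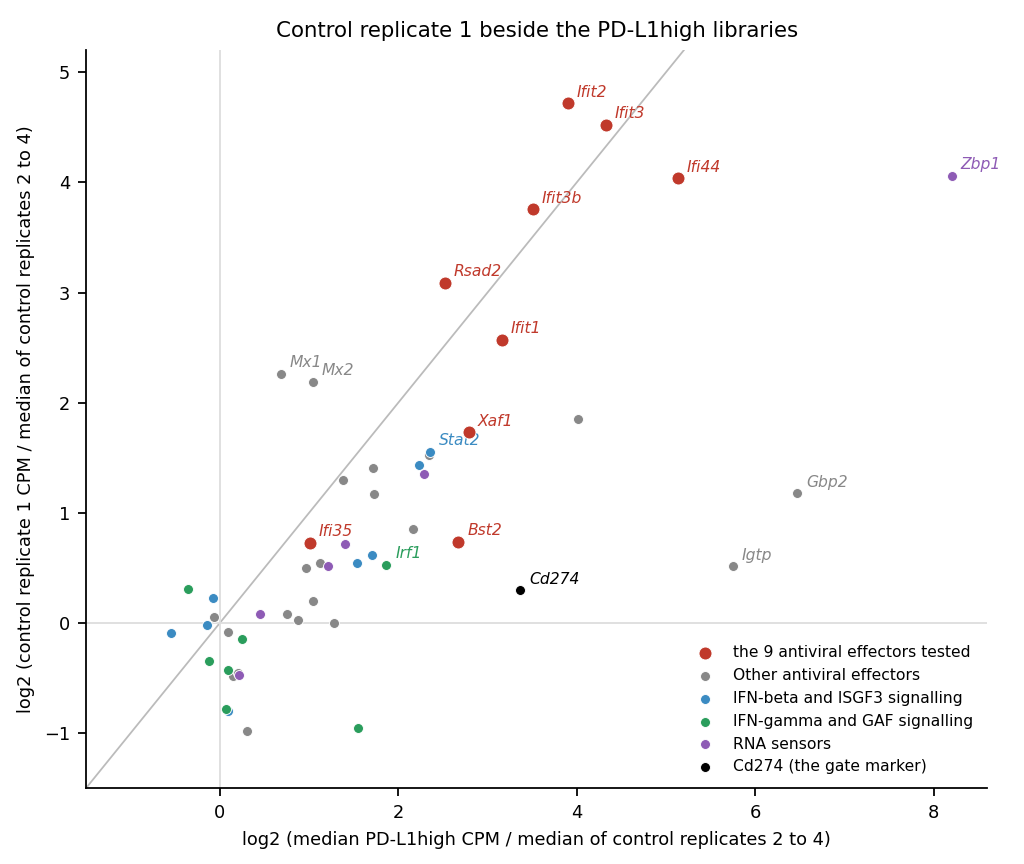
Each point is 1 gene; the horizontal axis is the log2 ratio of the median PD-L1high CPM to the median of control replicates 2 to 4, the vertical axis the same ratio for control replicate 1, and the grey line marks equal ratios; colours give the gene list. Ifit2, Ifit3, Ifit3b and Rsad2 lie above the line, Bst2 and Xaf1 below it, and Cd274, Igtp and Gbp2 far below it.

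Genes that share the antiviral programme were described from lists that hold none of the 10 genes. Of 22 tested further antiviral effectors, 11 rose in PD-L1high against control cells and none fell, while 0.941% of all tested genes rose. Among the 11 were the GTPases Igtp (5.61 on the log2 scale, adjusted p = 6.44e-11) and Gbp2 (6.27, adjusted p = 1.58e-06), the E3 ligase Herc6 (1.87, adjusted p = 1.22e-05) and Ifi27 (1.46, adjusted p = 4.89e-05). The median of this list was 1.0, below the 2.38 of the 9 genes. In PD-L1low cells 1 of the 22 rose, Igtp (2.97, adjusted p = 3.06e-07), against 0.0615% of all tested genes. Of 6 tested RNA sensors, 4 rose in PD-L1high cells: Ddx58 (1.22), Ifih1 (1.16), Dhx58 (1.79) and Zbp1 (5.94), with adjusted p from 4.89e-05 to 0.00486, and none rose in PD-L1low cells.

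Upstream, 4 of 9 genes of type I interferon and ISGF3 signalling rose in PD-L1high cells against control, while 0.941% of all tested genes rose. The 4 genes were Stat2 (1.88, adjusted p = 0.000265), Irf9 (1.61, adjusted p = 2.7e-05), Irf7 (1.76, adjusted p = 0.000747) and Usp18 (1.27, adjusted p = 0.00117). Stat2 and Irf9 encode parts of ISGF3, Irf7 encodes a factor that raises type I interferon genes, and Usp18 a feedback inhibitor of the receptor. Against PD-L1low cells the values were 1.11 for Stat2, 0.84 for Irf9, 2.1 for Irf7 and 1.19 for Usp18 on the log2 scale, with adjusted p from 0.000804 to 0.042. Between PD-L1low and control cells Stat2 was at 0.77 (adjusted p = 1.0) and Irf9 at 0.76 (adjusted p = 0.355) with all libraries. Without replicate 1 these were 0.96 (adjusted p = 0.00252) and 0.88 (adjusted p = 0.0156). The call then went to 2 of 8 tested genes of this list, 3 of 22 further effectors and 1 of 8 genes of IFNγ signalling, against 0.236% of all genes. Of 8 genes of IFNγ signalling, Irf1 rose in PD-L1high cells (1.8, adjusted p = 7.19e-07), and Jak2 (0.35, adjusted p = 0.385) and Socs1 (1.78, adjusted p = 0.448) did not pass. Irf8 (5.2, adjusted p = 0.109) did not pass either.

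Close relatives of the members showed no call. In the IFIT family Ifit1bl2 reached 0.644 to 1.26 CPM in PD-L1high libraries and up to 0.525 in controls (2.19 on the log2 scale, adjusted p = 0.695). In the IFITM family 2 of 6 genes were expressed enough to be tested: Ifitm2 was at 3.07 to 4.03 CPM in controls and 2.46 to 5.19 CPM in PD-L1high libraries (0.11, SE 0.36), and Ifitm10 was at 2.51 to 7.45 CPM in controls and 1.42 to 3.12 CPM in PD-L1high libraries (-0.96, adjusted p = 0.572). No IFITM gene exceeded 7.45 CPM in any library.

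The transcripts whose pattern over the 11 libraries was most like that of Ifit1, by the root mean square difference of centred log2 CPM, were Oasl2 (0.334), Rsad2 (0.394), Xaf1 (0.397) and Stat2 (0.439), followed outside the 10 genes by Herc6 (0.471), Uba7 (0.498) and H2-Q4 (0.518). For Bst2 they were Irf7 (0.429), Oas1a (0.526), Il18bp (0.535), Dhx58 (0.536) and H2-T23 (0.554), and the nearest of the 10 genes was Xaf1 (0.599). Ifit1 and Bst2 shared none of these 5. In control replicate 1, Oasl2 was at 61.2 CPM against a median of 15.3 in the other controls and H2-Q4 at 32.0 against 18.3. Near Bst2, Irf7 was at 24.1 CPM there against 8.94, and H2-T23 at 22.7 against 22.4. These are descriptions over 11 libraries that share their group structure.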

How the data were processed

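RNA-seq was analysed for 11 libraries of sorted beta cells, grouped by the sample labels; dose, time and gates are from the methods. According to the methods, 5 ng of RNA per library was reverse-transcribed from random primers with strand information, depleted of ribosomal RNA and read as paired 75-base reads, which STAR 2.5.2b aligned to GRCm38.p6 (GenCode M23) and RSEM quantified (version not given in the sources used here). In the study itself, batch was a term of the DESeq2 1.32.0 model. The deposited expected counts, 1 value per gene and library, carry no normalization. The TPM values, also made by the authors, were used for levels per length only, and the deposited FPKM values were not used.

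Rounding to whole numbers moved no total by more than 0.000388%. A symbol was found for 55141 of 55487 identifiers. Genes were kept by filterByExpr with a count minimum of 10 (16252 genes), and edgeR 4.0.16 (R 4.3.3) fitted a robust quasi-likelihood model with condition and replicate number, TMM scaling and a biological coefficient of variation of 0.258; the Benjamini-Hochberg adjustment ran over all tested genes, with a threshold of 0.05. The methods do not define the batch term, and the replicate number stands for it. CPM uses the TMM-scaled totals, and within-replicate differences use log2 CPM with a prior count of 2. Each n is, by the methods, an independent biological sample. No 2 libraries of a group were alike within sampling noise, so each counts once. Intervals of log2 fold changes come from the quasi-likelihood fit and include the spread between libraries. The CPM limits given for libraries without a count cover counting error only.

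The 10 genes, the gene lists and the tests were chosen with earlier results of these data known. Named genes are the 10, up to 4 genes per list described with the smallest p in PD-L1high versus control, and the 5 genes nearest in pattern to Ifit1 and to Bst2; genes outside this rule are said to be so or served as examples of marker lists. A gene left out of the lists is not reported here. Alternatives (limma 3.58.1 and DESeq2 1.42.0 among them) are in the closing section. Motifs were searched with Python 3.11.15, and positions and overlaps are from GENCODE on GRCm38.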

Additional observations from a re-analysis of the deposited data

Results flagged for a closer look

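In 7 of 18 gene and group pairs (9 genes in the 4 control and the 4 PD-L1high libraries) 1 library lay far from the other 3, the gap to the nearest of them, as a share of the whole range, being past Dixon's critical value for 4 samples, which chance passes in about 1 in 20 groups. In 6 of the 7 the library was control replicate 1: Ifit1 at 55.1 CPM, Ifit2 at 13.8, Ifit3 at 44.8, Ifit3b at 16.9, Rsad2 at 68.8 and Ifi44 at 7.91 CPM. The remaining pair was Ifi35 in PD-L1high replicate 4, at 18.3 CPM against 26.4 to 27.0 in the other 3 libraries. The 6 values of control replicate 1 come from 1 library and are not independent of each other.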

How the results depend on the processing

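Of 26 alternatives, several moved the counts of genes called. In PD-L1high versus control all 9 genes kept a positive fold change in each alternative, but the count of genes called, 2 with all libraries, was 8 without control replicate 1, without PD-L1high replicate 1 or without both (leaving out either leaves the other alone in its number), and it ranged from 1 to 8 over the analyses that left out a library or a replicate number. It was 1 with no replicate block and when only the groups compared were fitted, 4 with limma-voom, 8 with DESeq2 and the replicate block, and 9 with no filter on low counts. Of all genes, 124 of 16252 rose with no replicate block, 137 of 15046 with only the groups compared, and 200 of 16252 with limma-voom. With DESeq2 and the replicate block 213 of 16252 rose, and with no filter 241 of 27677. Without control replicate 1, without PD-L1high replicate 1 and without both, 138 of 15894, 136 of 16041 and 136 of 15702 rose. In PD-L1low versus control the count of antiviral effectors called was 0. It became 1 when only the groups compared were fitted (27 of 15646 genes rose) and 3 with no filter (70 of 27677). Leaving out libraries gave 0 to 1. In PD-L1high versus PD-L1low the count was 1. It became 2 with DESeq2 and no replicate block (145 of 16252 genes rose). With the block it was 3 with DESeq2 (158 of 16252) or limma-voom (137 of 16252). It was 7 when only the groups compared were fitted (131 of 15374), and 8 with no filter (192 of 27677). Leaving out libraries gave 1 to 7. Apart from the libraries left out, the cause was not tested. Bst2 was called in PD-L1high versus control and versus PD-L1low in all 26, and Xaf1 in 15 of 26 in the first. In PD-L1high versus PD-L1low, Xaf1 (1.93, adjusted p = 0.159) was called without control replicate 2 (1.99, adjusted p = 0.0036). Over all genes, the 161 calls in PD-L1high versus control ranged from 93 to 328, the 13 in PD-L1low versus control from 8 to 91 and the 119 between the treated groups from 64 to 354.

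Sign changes concerned PD-L1low versus control, where none of these values was called. With no replicate block the log2 fold changes were -1.71 for Ifit2, -0.62 for Ifit3, -0.57 for Ifit3b and -0.17 for Rsad2, and with DESeq2 and no replicate block -1.74, -0.64, -0.59 and -0.18. With limma-voom they were -0.8 for Ifit2 and -0.02 for Ifit3. When only the groups compared were fitted, Bst2 was at 0.0018 and Ifi44 at 0.78, and with DESeq2 and the block Ifi44 was at 0.16. Leaving out libraries moved Bst2 from -0.5 to 0.38, Ifi44 from -1.0 to 0.67, Ifit2 from -0.24 to 1.07 and Xaf1 from -0.02 to 0.79, and Ifitm2 in PD-L1high versus control from -0.02 to 0.31, with -0.0046 without PD-L1high replicate 3. Libraries of the same replicate number deviated together only in part, with correlations of -0.329 to 0.408 over 10 pairs, so the numbers were not shown to pair the samples. Depth limited Ifitm3, Ifit2 and Ifi44, which had 11 expected counts or fewer in some libraries.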
